A study of Rattus norvegicus with 27 samples.

Results

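Gene expression was compared between tail motor neurons of rats 21 days after the sacral spinal cord had been cut (titled Spi-21, 8 arrays) and those of sham-operated rats of the same day (ShamC-21, 6 arrays). Arrays were chosen by their titles, which takes in 14 of the 27 arrays of the series and, on each, 12913 probe sets. All rats were adult male Wistar rats, and the labels name no genetic change. The transected group had a lumbar laminectomy, a cut through the cord at S2 and the removal of 1 to 2 mm of it; the sham group had a laminectomy in which the dura stayed whole. Both groups had pain relief with buprenorfin for 48 hours and the fluorescent retrograde tracer Fluorogold, given into muscle and intraperitoneally 5 to 7 days before the cord was frozen. Labelled neurons were cut out by laser from sections of 10 µm, 100 to 200 per sample by the labels and 50 to 200 by the design text, and their RNA was amplified in 2 rounds. The labels tie no sample to an animal or a batch, so p-values measure the spread between samples. In such pooled RNA, fewer cells of a kind and less RNA per cell cannot be told apart.

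Motor neurons of the sacral cord drive the muscles of the tail. They receive glutamate, GABA and glycine from local circuits and serotonin and noradrenaline from the brainstem, and a cut above them removes the fibres that descend from the brain. In this rat model the tail becomes spastic over the following weeks, and the day studied here lies in the onset phase. Persistent inward currents, carried by sodium and calcium channels and raised by monoamine receptors, are a known source of long-lasting firing in these cells.

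The 14 arrays did not form 2 even groups. On the first principal component (36.2% of the variance) the sham arrays lay at positive scores and the transected arrays at negative ones, with transected replicates 1, 2 and 3 (−37.5, −27.5 and −38.3) farther out than the other 5 (−4.6 to −7.0). The GAPDH control, read at both ends of its transcript, split the transected arrays by replicate number. Its 3′ minus 5′ difference was 2.65 to 3.26 in sham arrays. Transected replicates 1 to 4 lay around this range (2.57 to 3.47), and replicates 5 to 8 lay below it (0.985 to 1.46). The labels give no batch, and the part of this split in the results was not tested, so differences are also given with only replicates 1 to 4 and only replicates 5 to 8 of the transected group, always against the same 6 sham arrays. In 1037 of 9769 genes (10.6%) the 2 sets of 4 transected arrays did not overlap. The beta-actin control differed between the operations in both sets. Its 3′ signal was 8.97 to 9.76 in transected and 7.97 to 8.35 in sham arrays (difference 1.15, exact permutation p = 0.000333, adjusted p = 0.00283 over 17 tests). The value 0.000333 is the smallest p this design can give. The beta-actin 3′ minus 5′ difference was at least 2.86 in all transected and at most 2.65 in all sham arrays. The groups differed in it by 0.92 (exact permutation, adjusted p = 0.00283 over 17 tests). In 3′ minus middle they differed by 0.62 (exact permutation, adjusted p = 0.00849). This offset went with the operation in both sets of 4, and its part in the results was not tested.

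**Figure D1:**
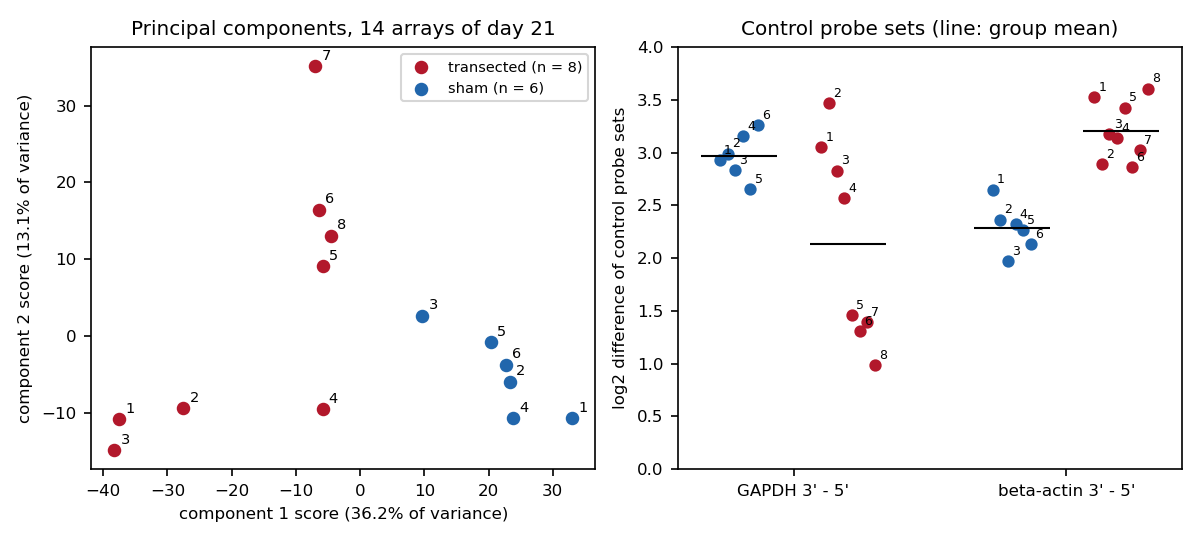
Left, scores of the 14 arrays of day 21 on the first 2 principal components of all probe sets; right, the log2 difference between the 3′ and 5′ control probe sets of GAPDH and beta-actin for each array, with replicate numbers and group means as lines. Transected replicates 5 to 8 (0.985 to 1.46) lie below all other arrays in the GAPDH difference, while all 8 transected arrays lie above the sham arrays in the beta-actin difference.

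The dissected cells carried transcripts of genes listed for motor neurons. Of 24 motor neuron identity genes 17 were measured, and Chat, which had no single-gene probe set, was not among them. The neurofilament genes Nefh (14.24 to 14.48 in sham, 14.15 to 14.41 in transected arrays) and Nefm (13.62 to 13.82 and 13.33 to 13.74), which encode the main intermediate filaments of large axons, and Prph (12.82 to 13.20 and 12.78 to 13.38), which encodes peripherin, stood near the top of the log2 scale in both groups. The mean of the 17 genes was 9.60 ± 0.114 (SD, n = 8) after transection and 9.65 ± 0.0765 (SD, n = 6) after sham operation, a difference of −0.044 (exact permutation, adjusted p = 0.518 over 17 tests). Among them 2 rose, 0 fell and 15 did not pass the threshold used throughout, a limma adjusted p under 0.05. The share called was 11.8%, beside 22.6% of all genes. One riser was the nicotinic receptor subunit gene Chrna4 (0.46 ± 0.103). The other was Isl2, a transcription factor of motor neurons (0.28, adjusted p = 0.0429), and omitting any of 10 arrays ended its call. Slc18a3, the vesicular transporter that loads acetylcholine, differed by 0.32 (adjusted p = 0.389). In 1 of the 17 genes, which did not pass, all 8 transected arrays lay below all 6 sham arrays, as in 2.3% of all genes. The differences of the 17 genes ran from −0.86 to 0.70, and the counts depended on the fit. With only the 14 arrays of day 21, 1 rose and 3 fell, and with array weights 2 rose and 3 fell. With only transected replicates 1 to 4, 4 rose and 2 fell, and with only 5 to 8, 1 rose and 0 fell.

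Marker genes of neighbouring cells were read in both groups, several of them at low signal. Of 13 astrocyte markers 4 rose and 0 fell (30.8%, beside 22.6% of all genes). The risers were Aldoc, a glycolytic enzyme of astrocytes (0.92 ± 0.18), and Slc1a2, their main glutamate transporter (0.39 ± 0.0907). The filament gene Gfap (1.06 ± 0.335) and Hepacam, an adhesion molecule (0.66 ± 0.219), rose too. The call of Gfap ended without sham replicate 1 or 2 (adjusted p up to 0.0618), and that of Hepacam without any of 3 arrays. The mean of the list ranged from 7.37 to 8.48 in sham and from 7.84 to 8.60 in transected arrays (difference 0.36, exact permutation, adjusted p = 0.14). Of 15 microglial and macrophage markers 3 rose, led by the complement gene C1qb (0.61 ± 0.163), and 0 fell (20% in all). Their mean was 6.31 to 6.56 in sham arrays. It was higher in all of transected replicates 1 to 4 (6.58 to 7.57), while replicates 5 to 8 ran from 6.03 to 6.44, and 6 markers rose with only the former and 0 with only the latter. The microglial gene Aif1 did not pass with all arrays (−0.89, limma adjusted p = 0.106). With only transected replicates 5 to 8 it fell (−1.43, limma adjusted p = 0.0297). With only replicates 1 to 4 it did not pass (−0.35, limma adjusted p = 0.589). Of 13 oligodendrocyte markers 2 rose (15.4%), Mbp (1.08) and Mag (0.56), and either call ended without any of 10 single arrays. Of 4 excitatory interneuron markers 1 rose, Slc17a7 (0.32), and 1 fell, Slc17a6 (−0.90), or 50% in all. These calls ended without any of 3 and any of 7 single arrays. Of 7 inhibitory interneuron markers 1 rose, Foxd3 (0.36), and 0 fell (14.3% in all), with differences from −1.62 to 0.36. Of 8 vascular, 8 Schwann cell and meningeal and 5 blood cell markers 0 passed in the limma fit. Some lists had low signals. The means of the excitatory (5.90 transected, 6.01 sham) and inhibitory interneuron (5.97, 6.12), vascular (6.20, 6.15) and blood cell lists (5.89, 5.90) lay below the median signal of the arrays (6.31 to 6.38). So did the group means of Slc1a2, C1qb, Slc17a7 and Foxd3, which reached at most 6.08 in transected arrays. The part of other cells in the differences below was not tested.

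At 21 days 2207 of 9769 genes differed between transected and sham motor neurons in the limma fit, 22.6% of those measured: 1085 rose (11.1%) and 1122 fell (11.5%). By probe sets 2917 of 12913 passed (22.6%). The falls were larger than the rises. The median size was 0.60 on the log2 scale (1.52-fold) for genes that fell and 0.39 (1.31-fold) for genes that rose, and 113 genes fell over 2-fold against 40 that rose over 2-fold. Over all genes the median difference was 0.0093. In 310 genes (3.17%) all 8 transected arrays lay above all 6 sham arrays, and in 225 (2.3%) all lay below. With any 1 of the 14 arrays left out, 632 genes kept a rise in every fit (6.47%) and 677 a fall (6.93%). With only transected replicates 1 to 4 the fit called 2999 genes and with only replicates 5 to 8 it called 1009; 631 were called in the same direction in both and 6 in opposite directions, beside the shared sham arrays.

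The 15 genes per direction with the smallest adjusted p are described next. In all 30 the groups did not overlap, beside 535 of all 9769 genes (5.48%). All 30 were called with only transected replicates 1 to 4, with only replicates 5 to 8 and without any 1 array. Since they were chosen by p in these same arrays, this follows largely from the choice and is no separate support. Their differences ran from 1.00 to 2.40 upward and from −0.72 to −2.02 downward. Several of the risers act at the membrane or the synapse. Cacng2, or stargazin, an auxiliary protein that carries AMPA receptors to the synapse, read 5.99, 6.76 and 7.03 in sham and 8.64, 8.86 and 9.48 in transected arrays (lowest, median and highest, here and below). Its difference was 2.28 ± 0.259 (standard error of the fit, adjusted p = 1.53e-06). Adgrb2, an adhesion G protein-coupled receptor of neurons, went from 5.64, 5.88 and 6.14 to 7.21, 7.84 and 8.07 (1.88 ± 0.154, adjusted p = 6.95e-09). Clcn3, a chloride/proton exchanger of endosomes and synaptic vesicles, went from 5.85, 7.04 and 7.24 to 7.94, 9.20 and 9.51 (2.20 ± 0.256). Its second probe set rose too, by 1.06. In each of these genes the lowest transected array stood above the highest sham array, by the widest gap in Cacng2.

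Other strong risers serve the cytoskeleton, lipid transport and the cell nucleus. Sptbn4, the spectrin that lines the axon initial segment, read 7.92, 8.15 and 8.66 in sham and 9.11, 9.98 and 10.35 in transected arrays (1.72 ± 0.207, adjusted p = 4.1e-06). Apoe, the main lipid carrier of the brain and a gene that astrocytes express strongly, went from 5.71, 5.87 and 6.39 to 7.51, 8.26 and 8.94 (2.40 ± 0.239, adjusted p = 2.23e-07), beside the astrocyte values above. Sympk, a scaffold of the machinery that cuts and polyadenylates messenger RNA, went from 6.17, 6.56 and 6.96 to 8.06, 8.55 and 9.20 (2.01 ± 0.221). The remaining risers were the kinase gene Dapk3 (1.54), the zinc finger gene Zfp771 (1.56), Cog8, a Golgi tethering subunit (1.33), Dhrsx (1.33), the ribosome biogenesis gene Nop53 (1.21), Ccdc124 (1.16), Erp29, an endoplasmic reticulum protein (1.06), the mitochondrial gene Chchd10 (1.01) and the phosphatase gene Ppp5c (1.00).

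Among the strongest falls were genes of transcription, RNA processing and translation. Ccar1, a coactivator of transcription and a regulator of apoptosis, read 8.77, 9.06 and 9.28 in sham and 6.37, 7.19 and 7.76 in transected arrays (−2.02 ± 0.213, adjusted p = 5.51e-07), although its second probe set rose by 0.32 (adjusted p = 0.0387). Eif1a, a translation initiation factor, went from 7.26, 7.80 and 8.12 to 4.74, 6.03 and 6.72 (−1.80 ± 0.261, adjusted p = 4.27e-05), and its other probe sets fell by 0.82 and 1.05. Smarca5, the motor of ISWI chromatin remodelers, went from 9.46, 9.69 and 9.94 to 8.16, 8.42 and 9.32 (−1.16 ± 0.15), and its other probe sets fell as well, by 0.54 and 0.41. The splicing factor gene Slu7 (−1.17), Mphosph10 and Tma16 of ribosome biogenesis (−1.11 and −1.03), the transfer RNA methyltransferase gene Trmt10b (−1.25) and Zcchc17, a nucleolar RNA-binding protein (−0.81), belong to the same side. The second probe sets of Slu7 (0.15, adjusted p = 0.544) and Mphosph10 (0.058, adjusted p = 0.845) did not pass.

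The other genes of this group that fell have roles at the cell surface, in lipid use and in transport. Cd55, which protects cells from complement, read 8.14, 8.63 and 9.63 in sham and 5.58, 6.73 and 7.57 in transected arrays (−1.93 ± 0.263, adjusted p = 1.94e-05), and its second probe set differed by −0.067 (adjusted p = 0.738). Lrrc4c, a postsynaptic adhesion molecule, went from 7.45, 8.11 and 8.89 to 6.60, 7.09 and 7.41 (−1.10 ± 0.152). Psmc6, an ATPase of the proteasome, fell by 0.98 ± 0.131 and by 1.00 and 0.64 in its other probe sets. Parp8 (−1.02), the fatty acid ligase gene Acsl3 (−0.83), Septin8 (−0.75) and Bicd2, an adaptor of dynein (−0.72), complete the list.

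**Figure D2:**
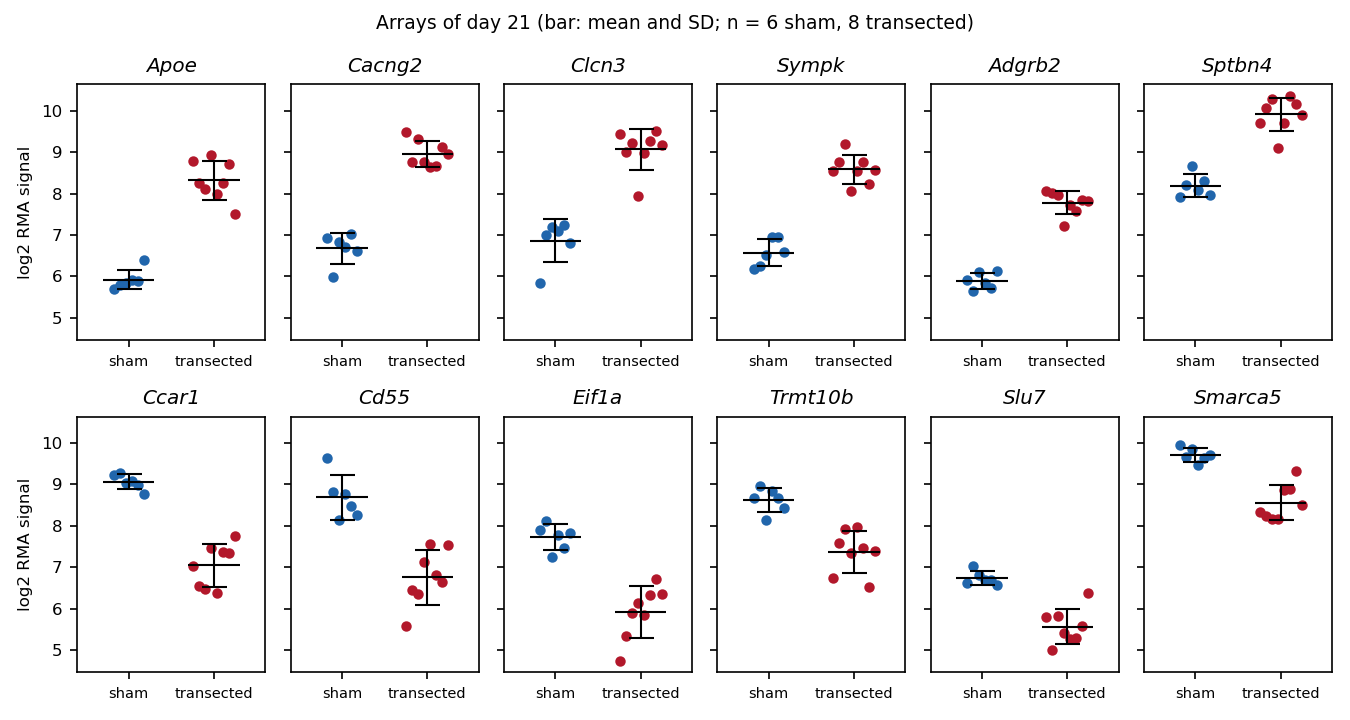
Log2 RMA signal of each array of day 21 for 12 genes, the 6 with the largest difference in each direction among the 30 with the smallest adjusted p; bars show the mean and SD of 6 sham and 8 transected arrays. In all 12 genes the groups do not overlap, from Apoe (difference 2.40) to Ccar1 (−2.02), which the choice by smallest adjusted p in these arrays favours.

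The genes were also sorted into 42 lists by function. In 24 of them a larger share of members passed than the 22.6% of all genes; risers outnumbered fallers in 23, fallers outnumbered risers in 15, and 4 were even. Lists share some genes and differ in size, and no test compared them.

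**Figure D3:**
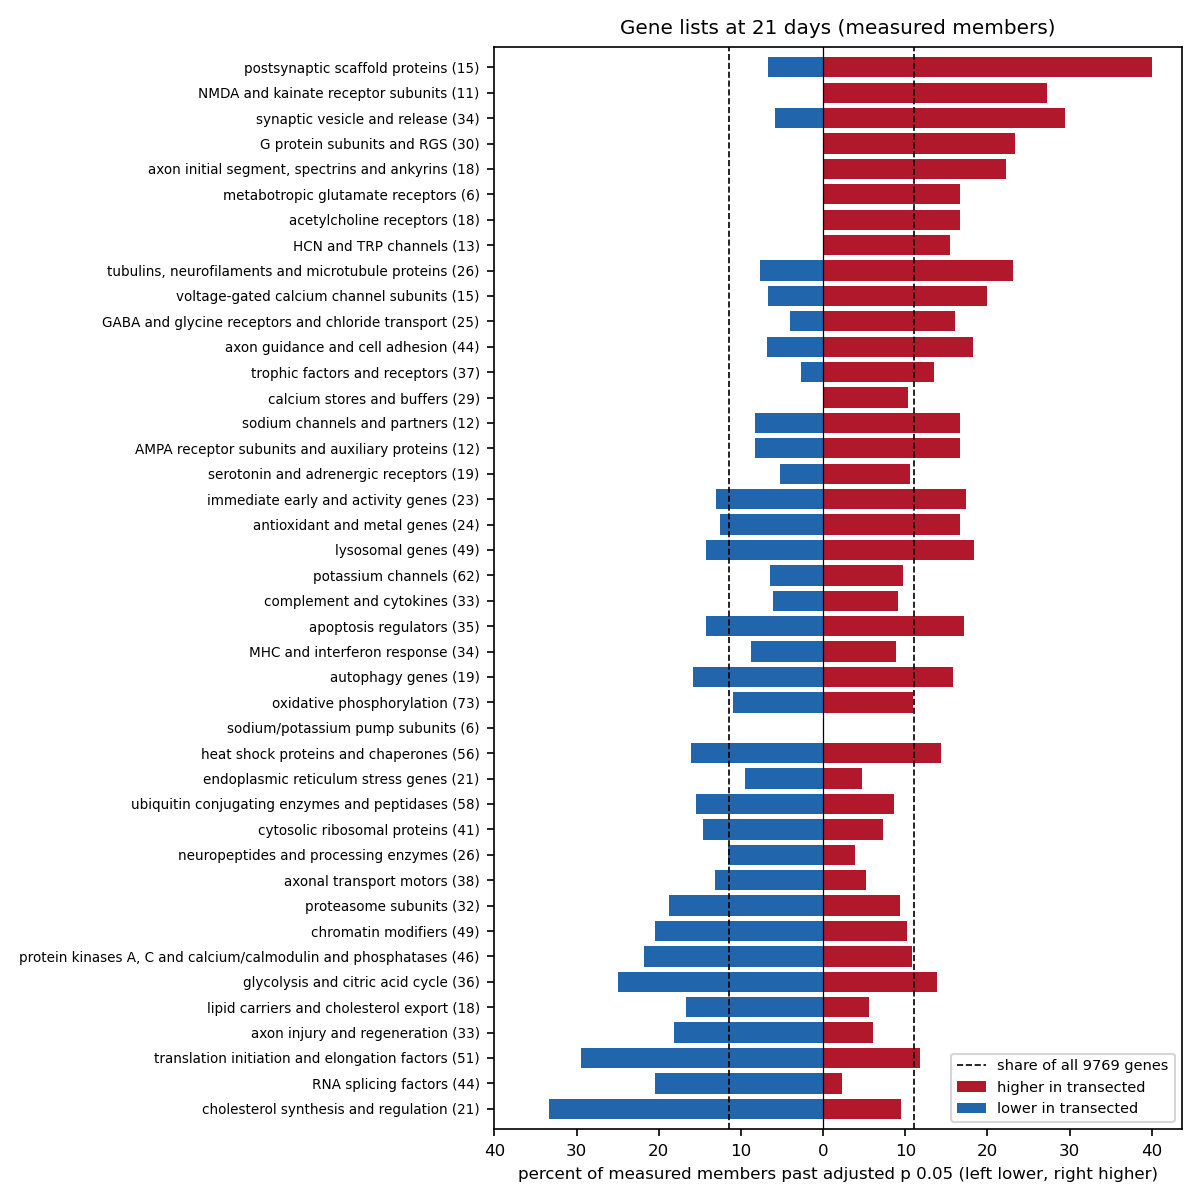
Percent of measured members of each of 42 gene lists that rose (right) or fell (left) at 21 days by limma with an adjusted p under 0.05, with the number of measured members in brackets and the shares of all 9769 genes as dashed lines (11.1% higher, 11.5% lower). Postsynaptic scaffolds (6 of 15 higher) stand at the top, and cholesterol synthesis (7 of 21 lower) at the bottom.

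Genes of excitatory transmission passed in both directions. The shares were 25% for the AMPA, 27.3% for the NMDA and kainate and 16.7% for the metabotropic list, beside 22.6% of all genes. Of 12 AMPA receptor subunits and auxiliary proteins 2 rose, Cacng2 and Pick1, a scaffold that moves AMPA receptors away from the membrane (0.64 ± 0.115), and 1 fell. The latter was the subunit Gria4, which read 8.40, 8.86 and 9.12 in sham and 7.33, 7.74 and 8.71 in transected arrays (−0.97 ± 0.169, adjusted p = 0.000296), 7 of 8 below every sham array; its second probe set differed by 0.16 (adjusted p = 0.359). Of 11 NMDA and kainate receptor subunits 3 rose and 0 fell. Grin3b, an NMDA receptor subunit found mainly in motor neurons, went from 7.61, 7.88 and 8.16 to 8.40, 8.99 and 9.45 (1.14 ± 0.16, adjusted p = 2.9e-05), with no overlap of the groups. The kainate receptor subunit genes Grik5 (0.47 ± 0.102) and Grik4 (0.42 ± 0.116) rose less. Of 6 metabotropic glutamate receptors and their scaffolds 1 rose, Homer3 (0.43).

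Postsynaptic scaffold genes had the largest share past the threshold, 7 of 15 (46.7%), with 6 higher and 1 lower. Dlgap1, which links PSD-95 to Shank proteins, read 4.55, 4.67 and 4.94 in sham and 5.19, 5.35 and 5.76 in transected arrays (0.67 ± 0.0985, adjusted p = 5.03e-05), and the groups did not overlap. Dlg2, a relative of PSD-95, fell by 0.78 ± 0.186 (adjusted p = 0.00437). The other risers were near the threshold: with 1 array left out at a time, 1 to 6 members rose, and Dlgap1 rose in every such fit. For Shank2 (0.29) a second probe set fell by 0.77.

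On the presynaptic side 10 of 34 genes of synaptic vesicles and release rose and 2 fell (35.3% in all), and 6 to 10 rose in fits that omit 1 array. Syp, or synaptophysin, a membrane protein of synaptic vesicles, read 9.79, 9.99 and 10.07 in sham and 10.19, 10.40 and 11.16 in transected arrays (0.64 ± 0.134, adjusted p = 0.00161). All transected arrays stood above the sham arrays, with a larger difference in replicates 1 to 4 (0.94) than in replicates 5 to 8 (0.34). The calcium sensor gene Syt7 (0.35 ± 0.0858), Syt11 (0.44 ± 0.108) and the adhesion gene Nrxn2 (0.61 ± 0.123) rose too, although a second probe set of Nrxn2 showed no difference (adjusted p = 0.983). The fallers Rims2 (−0.51) and Rab3c (−0.42) lost their calls without any of 9 and any of 6 single arrays. With only replicates 5 to 8 of the transected group 2 members rose and 2 fell.

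Receptors for inhibitory transmitters and chloride transport passed in 5 of 25 genes (20%, beside 22.6% of all genes), with 4 higher and 1 lower. Beside Clcn3, its relative Clcn6 rose (0.36 ± 0.104), and both held without any 1 array. The glycine receptor subunit gene Glra2 (0.30), the GABA-B receptor gene Gabbr1 (0.37) and the GABA-A subunit gene Gabra5 (−0.68) lost their calls without any of 7, any of 10 and any of 8 arrays. Of 18 acetylcholine receptor genes 3 rose and 0 fell (16.7%). Among the risers were Chrna6 (0.33 ± 0.0819), which did not overlap between the groups, and Chrna4.

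Of 19 serotonin and adrenergic receptor genes 2 rose and 1 fell (15.8% in all, beside 22.6% of all genes), and the shortfall was not tested. The beta-adrenergic receptor gene Adrb3 (0.37 ± 0.108) rose and the serotonin receptor gene Htr2b fell by 0.57 ± 0.178, a call that ended without sham replicate 1 (adjusted p = 0.0862). The receptors most often linked to persistent inward currents did not pass. Htr2c read 5.65, 5.71 and 5.78 in sham and 5.48, 5.71 and 5.90 in transected arrays (−0.018, adjusted p = 0.905), and Htr2a 5.87, 5.97 and 6.11 and 5.62, 6.03 and 6.18 (0.020, adjusted p = 0.902). Both genes lay below the median signal of the arrays (6.31 to 6.38). The same limit holds for several risers, whose highest transected array also lay below it. Examples are Dlgap1 (5.76), Homer3 (5.63), Grik5 (6.26), Adrb3 (6.04) and Fgf12 (6.26).

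Voltage-gated channel genes passed in both directions. Of 15 calcium channel subunits 3 rose and 1 fell (26.7%). The risers were the T-type channels Cacna1i (0.39 ± 0.0846) and Cacna1g (0.29 ± 0.0738), neither overlapping with the sham arrays, and the N-type channel Cacna1b (0.35 ± 0.104). A second probe set of Cacna1i differed by 0.026 (adjusted p = 0.875). Cacnb4, an auxiliary subunit, went from 5.38, 5.95 and 6.40 to 5.03, 5.16 and 5.45 (−0.74 ± 0.141). The L-type genes Cacna1d (−0.32, adjusted p = 0.0837) and Cacna1c (−0.18, adjusted p = 0.318), which can carry persistent calcium currents, did not pass. Cacna1d passed without transected replicate 6.

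Of 12 sodium channel genes and partners 2 rose and 1 fell (25%, beside 22.6% of all genes). Scn9a, which encodes the channel Nav1.7, read 7.52, 8.92 and 9.89 in sham and 5.20, 6.40 and 7.77 in transected arrays, the widest spread among the channels named, and fell by 2.31 ± 0.444 (adjusted p = 0.000794); 6 of 8 transected arrays lay below all sham arrays. Fgf12, a cytoplasmic partner that shifts sodium channel inactivation, rose by 0.49 ± 0.11. Of 62 potassium channel genes 6 rose and 4 fell (16.1%); fits that omit 1 array gave 3 to 7 and 2 to 4, and 2 of each held in every such fit. Kcnh2, the ERG channel, went from 6.11, 6.16 and 6.30 to 6.43, 6.57 and 6.82 (0.42 ± 0.0753, adjusted p = 0.000381) without overlap, and Kcnh3 rose by 0.33 ± 0.0925. The leak channel gene Kcnk2 fell by 0.69 ± 0.196. Kcnab1, a subunit that speeds inactivation, fell by 0.80 ± 0.162 with its first and rose by 0.27 with its second probe set. Of 13 HCN and TRP channel genes 2 rose (15.4%), and with 1 array left out at a time 0 to 2 did. Of 6 sodium/potassium pump subunits 0 passed by limma; the smallest adjusted p was that of Fxyd1 (0.32, adjusted p = 0.0573).

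With all arrays, genes of signalling downstream of receptors passed in 1 direction for G proteins and in both for kinases. Of 30 G protein subunits and RGS genes 7 rose and 0 fell, with 4 to 8 risers without 1 array at a time. The share called (23.3%) was near the 22.6% of all genes. With only transected replicates 1 to 4, 9 rose and 0 fell, and with only 5 to 8, 3 rose and 1 fell. Gnb2, a beta subunit, read 7.69, 7.80 and 8.12 in sham and 8.15, 8.66 and 9.09 in transected arrays (0.77 ± 0.132, adjusted p = 0.000263), and its second probe set rose by 0.48. The alpha subunit genes Gnai2, which inhibits adenylyl cyclase (0.64 ± 0.142), and Gnaq, which activates phospholipase C (0.41 ± 0.0959), rose as well. Of 46 genes of protein kinases A and C, calmodulin kinases, phosphodiesterases and phosphatases 5 rose and 10 fell (32.6%), with 4 to 10 fallers without 1 array at a time.

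Members of related enzymes in this last list went both ways. Prkaca, a catalytic subunit of protein kinase A, rose from 7.30, 7.48 and 7.62 to 7.76, 8.17 and 8.65 (0.66 ± 0.126), and the phosphodiesterases Pde10a (0.55 ± 0.1) and Pde4b (0.54 ± 0.121), which break down cyclic nucleotides, rose too. Prkcb, a calcium-dependent protein kinase C, fell from 9.47, 9.86 and 10.01 to 7.30, 8.50 and 9.11 (−1.37 ± 0.264, adjusted p = 0.000797), and its second probe set fell by 0.42. The catalytic subunits of protein phosphatases Ppp1cc (−0.62), Ppp1cb (−0.75) and Ppp2ca (−0.78) fell, while Ppp3r1, the regulatory subunit of calcineurin, rose (0.43), a call that ended without sham replicate 5 (adjusted p = 0.055). With only transected replicates 5 to 8, 1 member of the list fell, against 10 with only replicates 1 to 4.

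Of 51 translation initiation and elongation factor genes 21 passed (41.2%), 6 higher and 15 lower, with a median of −0.17. In fits that omit 1 array there were 6 to 9 risers and 13 to 15 fallers. Eef1a2, the form of elongation factor 1A that mature neurons and muscle use, read 6.71, 7.23 and 7.34 in sham and 7.72, 8.53 and 9.41 in transected arrays (1.36 ± 0.198, adjusted p = 4.27e-05). Eif5a (0.87 ± 0.138), the scaffold of the cap-binding complex Eif4g1 (0.98 ± 0.153) and its helicase Eif4a1 (0.63 ± 0.108) rose as well, each without overlap. One of the 2 other probe sets of Eif4g1 rose by 0.81 and the other differed by −0.038 (adjusted p = 0.791).

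The fallers included other initiation factors and a kinase gene. Beside Eif1a, the kinase Eif2ak4, which senses uncharged transfer RNA, went from 7.30, 7.37 and 7.73 to 6.65, 6.75 and 7.12 (−0.67 ± 0.101, adjusted p = 6.69e-05). Eif2a fell by 0.92 ± 0.185 and Eif3a, the largest subunit of the eIF3 complex, by 0.68 ± 0.15, again with no overlap between the groups. Cytosolic ribosomal proteins were at the background: of 41 genes 3 rose and 6 fell, from Rps29 (0.47 ± 0.0933) to Rpl28 (−0.98 ± 0.189). At 60 days 2 of these rose and 14 fell.

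Genes of protein breakdown passed in both directions, with more fallers than risers. Of 32 proteasome subunits 3 rose and 6 fell (28.1%). Beside Psmc6, the deubiquitinating subunit Psmd14 went from 11.02, 11.19 and 11.43 to 9.45, 10.30 and 10.88 (−0.97 ± 0.162), with no difference past the threshold in its second probe set (−0.13, adjusted p = 0.579). Psmb2 (−0.65) and Psmd5 (−0.79) fell and Psmd8 rose (0.52). With only transected replicates 5 to 8 the split was 3 higher and 2 lower, with only replicates 1 to 4 it was 2 higher and 11 lower. Of 58 ubiquitin conjugating enzymes and ubiquitin peptidases 5 rose and 9 fell (24.1%, beside 22.6% of all genes). The risers were led by Ube2m (0.85 ± 0.156), and among the fallers were Ube2n (−0.83 ± 0.155) and Uchl3 (−1.10 ± 0.266). Fits that omit 1 array had 2 to 7 risers and 7 to 11 fallers.

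Of 56 heat shock proteins and chaperones 8 rose and 9 fell (30.4%, beside 22.6% of all genes). Hspa4, a nucleotide exchange factor of Hsp70, went from 8.21, 8.34 and 8.60 to 7.25, 7.39 and 7.93 (−0.86 ± 0.176, adjusted p = 0.00129) without overlap, and the co-chaperones Dnaja1 (−0.76) and Dnajc21 (−0.58) fell. Hspbp1, another exchange factor (0.55), and Hspa13 (0.51) rose. The number of fallers depended on the transected arrays, 20 with only replicates 1 to 4 and 3 with only replicates 5 to 8. Of 21 endoplasmic reticulum stress genes 1 rose and 2 fell (14.3%). The riser was the lectin chaperone Canx (0.48), and 1 of the fallers was P4hb (−0.75), which forms disulfide bonds.

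Of 44 RNA splicing factors 1 rose and 9 fell (22.7%, at the share of all genes), and 6 of the 9 fell in every fit without 1 array. Hnrnpa1, an abundant RNA-binding protein that represses exons, went from 9.45, 9.54 and 9.69 to 7.98, 8.59 and 9.44 (−0.83 ± 0.189), with all transected arrays below all sham arrays; its second probe set differed by −0.18 (adjusted p = 0.371). Hnrnph1 (−0.83), Prpf38a (−0.58) and Hnrnpf (−0.36) fell too. The count depended on the transected arrays: 16 members fell with only replicates 1 to 4 and 1 with only replicates 5 to 8.

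Chromatin genes had 5 of 49 members higher and 10 lower (30.6%, beside 22.6% of all genes). ATP-driven remodelers went both ways, since Chd4 of the NuRD complex read 6.55, 6.74 and 6.79 in sham and 7.19, 7.37 and 7.57 in transected arrays (0.68 ± 0.105, adjusted p = 8.33e-05) and rose in its 2 other probe sets, while Smarca5 fell. Chd8 (0.65) and the SWI/SNF subunits Smarcc2 (0.60) and Smarca4 (0.56) rose. The histone demethylase gene Kdm4c (−0.98), Eed of the Polycomb complex (−0.62) and the deacetylase gene Hdac2 (−0.78) fell. Without 1 array at a time 5 to 11 members of the list fell.

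With all arrays, energy metabolism passed without a common direction. Of 73 oxidative phosphorylation genes 8 rose and 8 fell (21.9%, beside 22.6% of all genes). The counts depended on the transected arrays: 10 rose and 16 fell with only replicates 1 to 4, and 6 rose and 0 fell with only 5 to 8. Uqcrc1, a core subunit of complex III, read 9.77, 10.36 and 10.59 in sham and 11.25, 11.64 and 11.75 in transected arrays (1.29 ± 0.208, adjusted p = 0.000141), and Cox6a1 of complex IV rose by 0.65 ± 0.13. The complex I assembly factor genes Ndufaf4 (−0.82) and Ndufaf5 (−0.35) fell. Of 36 genes of glycolysis and the citric acid cycle 5 rose and 9 fell (38.9%), with 3 to 7 and 6 to 9 without 1 array at a time. In this list 9 fell with only transected replicates 1 to 4 and 1 with only 5 to 8. The early glycolytic enzymes Gpi (0.95 ± 0.172) and Aldoa (0.57 ± 0.172) rose beside Aldoc, an astrocyte marker. Pgk1, of the later steps (−0.49 ± 0.106), and Pdha1, which feeds pyruvate into the cycle (−0.65 ± 0.165), fell; a second probe set of Pgk1 fell by 0.64 and one of Pdha1 differed by 0.013 (adjusted p = 0.96).

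Cholesterol synthesis had the lowest median of the 42 lists, −0.33. Of 21 measured genes 7 fell and 2 rose (42.9%, beside 22.6% of all genes). The fallers were enzymes and regulators of the sterol pathway. Msmo1, a sterol methyl oxidase, read 9.92, 10.22 and 10.76 in sham and 8.79, 9.52 and 9.88 in transected arrays (−0.81 ± 0.145, adjusted p = 0.000402), with all transected arrays below all sham arrays. Acat2, which makes acetoacetyl-CoA, fell by 0.89 ± 0.204, Sqle, squalene epoxidase, by 0.65 ± 0.185, and Stard4, a sterol carrier, by 0.53 ± 0.138. Mvd (−0.49), Hsd17b7 (−0.40) and Insig1 (−0.56), named after their values were seen, fell as well. The 2 that rose were the transcription factors that switch the pathway on, Srebf1 (0.52 ± 0.118) and Srebf2 (0.51 ± 0.13). Srebf2 rose by 0.81 with only transected replicates 1 to 4 and differed by 0.21 with only replicates 5 to 8. At 60 days 1 member fell and 2 rose.

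Since activators and enzymes of this pathway moved apart, the upstream sequences of 1 activator and 2 fallers are shown. They are the 250 bases before the annotated start, 5′ to 3′ on the strand of the gene, from the RefSeq table of rat assembly GRCr8, in which 17 of the 21 genes have an entry. Capitals mark TCACCCCA, the core of the element to which SREBP proteins bind, and CCAAT, to which NF-Y binds, or their reverse complements; both strands were searched, and the motifs were chosen after the values had been seen. Srebf2 lies on chr7:115543057-115543306 (plus strand), Msmo1 on chr16:29746863-29747112 (plus strand) and Insig1 on chr4:8057770-8058019 (minus strand).
Srebf2: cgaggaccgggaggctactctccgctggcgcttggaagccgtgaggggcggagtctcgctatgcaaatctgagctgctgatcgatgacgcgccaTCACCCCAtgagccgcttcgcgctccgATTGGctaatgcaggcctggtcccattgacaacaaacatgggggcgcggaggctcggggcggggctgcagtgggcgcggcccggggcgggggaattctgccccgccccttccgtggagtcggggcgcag
Msmo1: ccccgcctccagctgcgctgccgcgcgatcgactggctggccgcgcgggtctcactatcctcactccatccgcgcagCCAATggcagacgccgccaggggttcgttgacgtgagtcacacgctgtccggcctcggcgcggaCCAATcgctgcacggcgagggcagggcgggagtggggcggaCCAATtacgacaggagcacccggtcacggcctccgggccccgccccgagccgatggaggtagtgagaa
Insig1: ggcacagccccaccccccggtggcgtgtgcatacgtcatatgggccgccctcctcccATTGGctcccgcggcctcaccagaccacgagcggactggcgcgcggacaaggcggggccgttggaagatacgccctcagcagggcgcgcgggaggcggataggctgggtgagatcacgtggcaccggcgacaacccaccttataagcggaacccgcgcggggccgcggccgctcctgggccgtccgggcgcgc
TCACCCCA stood in 1 of the 17 windows, that of Srebf2, and in 1.15% of the 27457 windows of the table, and the motifs do not overlap there. CCAAT stood in 13 of the 17 and in 34.3% of all windows. It occurred in 4 of the 5 fallers with an entry, 3 times in Msmo1 and once in Insig1, and also in the windows of both activators. A match is a run of letters and not a measured site.

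Lysosomal and autophagy genes passed in both directions. Of 49 lysosomal genes 9 rose and 7 fell (32.7%). The fallers numbered 4 to 7 in fits that omit 1 array, and 7 with only transected replicates 1 to 4 against 1 with only 5 to 8. Psap, the precursor of the saposins that help to break down sphingolipids, read 8.28, 8.37 and 8.46 in sham and 8.80, 9.08 and 9.68 in transected arrays (0.79 ± 0.122, adjusted p = 8.42e-05). The proteases Tpp1 (0.79 ± 0.127) and Ctsd (0.80 ± 0.182) and Atp6v1g1 of the proton pump (0.67 ± 0.133) rose, while another protease, Ctsl (−0.67 ± 0.196), and another pump subunit, Atp6v0d1 (−0.53 ± 0.144), fell. Of 19 autophagy genes 3 rose, among them Tfeb, the transcription factor of lysosomal genes (0.49 ± 0.0897), and 3 fell, among them Atg3 (−0.75 ± 0.18); 1 to 5 fell in fits that omit 1 array, and 0 with only transected replicates 5 to 8. Of 24 antioxidant and metal-binding genes 4 rose and 3 fell (29.2%, beside 22.6% of all genes). Gpx4, which removes lipid peroxides, went from 6.81, 7.21 and 7.35 to 7.73, 8.17 and 8.47 (1.01 ± 0.136, adjusted p = 1.45e-05), and the metallothionein gene Mt3 rose by 0.74 ± 0.119. Gclm, of glutathione synthesis, fell by 1.10 ± 0.211, and the groups did not overlap in any of these 3.

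Genes of the axon and its cytoskeleton passed at shares around the 22.6% of all genes. Of 18 genes of the axon initial segment, spectrins and ankyrins 4 rose and 0 fell (22.2%), with Sptbn4 followed by Sptbn1 (0.98 ± 0.222) and Ank2 (0.38 ± 0.0999). Of 26 tubulin, neurofilament and microtubule protein genes 6 rose and 2 fell (30.8%), with 3 to 7 risers without 1 array at a time. Map2, the microtubule protein of dendrites, went from 5.04, 5.43 and 5.64 to 5.64, 5.92 and 7.04 (0.66 ± 0.178) without overlap. Of 38 transport motor genes 2 rose and 5 fell (18.4%), and each of the 7 held without any 1 array. Subunits of one complex went opposite ways: the dynactin genes Dctn6 (0.50 ± 0.102) and Dctn1 (0.39 ± 0.109) rose and Dctn5 (−0.79 ± 0.146) fell, all without overlap. The dynein chain gene Dync1i2 fell by 0.75 ± 0.149 and the kinesin gene Kif16b by 0.94 ± 0.2.

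Of 33 genes of axon injury and regeneration 2 rose and 6 fell (24.2%). The fallers numbered 2 to 6 in fits that omit 1 array, and 2 held in every such fit. With only transected replicates 1 to 4 the list had 6 higher and 3 lower, with only 5 to 8 it had 1 and 4, and at 60 days 6 were higher and 2 lower. Basp1, a growth cone protein, rose from 7.07, 7.22 and 7.58 to 7.89, 8.26 and 9.03 (1.09 ± 0.169, adjusted p = 8.98e-05). Arg1, or arginase, which promotes outgrowth, read 8.18, 10.85 and 12.28 in sham and 6.40, 6.77 and 10.92 in transected arrays and fell by 2.96 ± 0.66 (adjusted p = 0.00264), with 7 of 8 transected arrays below all sham arrays and replicate 4 within their range. Plat, a protease, fell by 0.62 ± 0.142. Atf3, a transcription factor switched on by injury, went from 9.70, 10.58 and 11.85 to 7.67, 8.76 and 10.29 (−1.77 ± 0.543, adjusted p = 0.0211), a call that ended without sham replicate 1 or 4 (adjusted p up to 0.0627).

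Among neuropeptides and their processing enzymes 1 of 26 rose and 3 fell (15.4%, beside 22.6% of all genes). The riser was Pcsk1n, an inhibitor of a prohormone convertase, which went from 7.13, 7.24 and 7.39 to 7.77, 8.44 and 9.80 (1.49 ± 0.263, adjusted p = 0.000349) and differed by 2.11 with only replicates 1 to 4 and 0.88 with only replicates 5 to 8 of the transected group. Chgb, a granule protein, fell by 0.77 ± 0.191 and the peptide gene Crh by 0.73 ± 0.171. Of 37 trophic factor and receptor genes 5 rose and 1 fell (16.2%). Nrg1 rose by 1.32 ± 0.27 in its first probe set, Erbb2, a coreceptor for neuregulins, by 0.36 ± 0.0973, Ntrk2, the receptor of BDNF, by 0.70 ± 0.216 and Igf2r by 0.55 ± 0.143. Second probe sets of Ntrk2 (0.13, adjusted p = 0.223) and Igf2r (−0.11, adjusted p = 0.568) did not pass. Of 44 axon guidance and cell adhesion genes 8 rose and 3 fell (25%). Risers included Cdh13, a cadherin (1.40 ± 0.26), and Sema6c (0.47 ± 0.0828), and the fallers were led by Rtn4, which encodes Nogo (−1.03 ± 0.217).

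Activity-dependent and immune genes passed in both directions. The 2 immune lists had smaller shares past the threshold than the 22.6% of all genes, and the shortfall was not tested. Of 23 immediate early and activity genes 4 rose and 3 fell (30.4%), and 1 of these 7, Sik1 (0.31 ± 0.0827), held without any 1 array. Of 35 apoptosis regulators 6 rose, led by Dapk3 and followed by Dapk2 (0.43 ± 0.108) and Bcl2l11 (0.44 ± 0.115), and 5 fell (31.4% in all), and 0 of the fallers held in every fit without 1 array. Of 34 MHC and interferon genes 3 rose and 3 fell (17.6%). They were led by RT1-T24-4, a rat class I gene (−1.63 ± 0.265), and the interferon receptor gene Ifnar1 (−0.81 ± 0.161), both lower. The MHC genes of the rat form a family of near-identical copies, and which copy a probe set reads is uncertain. Of 33 complement and cytokine genes 3 rose and 2 fell (15.2%). Among them were C1qb and Il1b (0.38 ± 0.109) on the higher side and Cd55 and C5 (−0.52 ± 0.115) on the lower. The microglial values above stand beside them. Of 29 calcium store and buffer genes 3 rose and 0 fell (10.3%). Of 18 lipid carrier genes 1 rose, Apoe, and 3 fell (22.2%), and 0 of these fallers held in every fit that omits 1 array.

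For some genes the direction depended on the probe set. Of the 9769 genes 1705 had more than 1 probe set, and 737 of these had at least 1 call. Only 154 had at least 2, and in 44 of them calls went in opposite directions. Gch1, the first enzyme of tetrahydrobiopterin synthesis, differed by −1.61 in one probe set and 0.41 in the other, Papolg, a poly(A) polymerase, by −1.26 and 0.40, and Nrg1 by 1.32 and −0.61. Sptssb, a subunit of serine palmitoyltransferase, gave 0.69 and −0.74, Serf2 0.68 and −0.85 and Prkacb, a catalytic subunit of protein kinase A, 0.57 and −0.79. Each of these values passed by limma. The probe sets of a gene read different stretches of its transcripts, and which stretch each one reads was not analysed here. In 647 genes at least 1 probe set was called and at least 1 other was not.

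**Figure D4:**
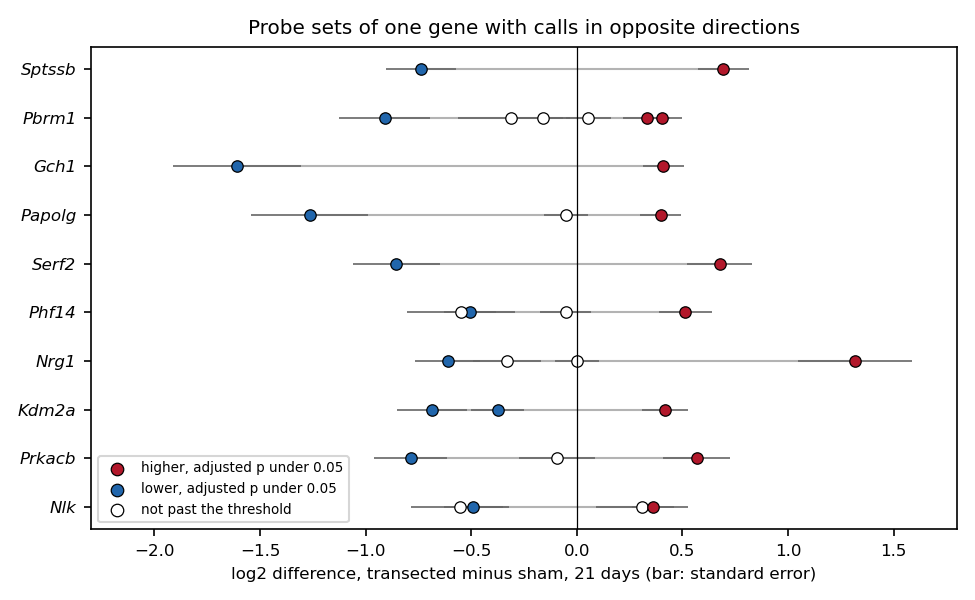
Log2 difference between transected and sham arrays at 21 days for every probe set of 10 genes with calls in opposite directions, with standard errors as bars; filled points passed an adjusted p of 0.05. Gch1 spans from −1.61 to 0.41 and Nrg1 from −0.61 to 1.32.

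Length, signal and promoter composition of the called genes are given as a description, with no test. In the RefSeq table the genes that fell had a median span of 27.7 kb from first to last base and those that rose 14.1 kb, beside 20.6 kb for all genes measured. At 60 days the medians were 26.8 kb and 13.5 kb. The median signal over all arrays was 7.40 in genes that fell, 6.42 in genes that rose and 6.55 in all. In the 250 bases before the start the median GC share was 60.0% in genes that fell, 59.2% in genes that rose and 58.8% in all, among the 82.6% of genes with an entry.

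The 60-day arrays, 8 transected and 5 sham and none shared with day 21, gave the same direction for most strong differences. At 60 days 1964 genes passed (20.1%), 1042 higher (10.7%) and 922 lower (9.44%). Of the 2207 genes called at 21 days 1036 were called in the same direction at 60 days, 2 in the opposite one, and 1169 did not pass there; 926 passed at 60 days and not at 21. All 30 genes with the smallest adjusted p were called at 60 days in the same direction, with differences from 0.62 to 2.78 upward and from −0.45 to −2.04 downward. The test of the difference between the days called 0 of 12913 probe sets by limma (905 had an unadjusted p under 0.05). It called 3 with array weights and 161 with transected replicates 1 to 4 of day 21 left out.

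Examples among the genes with the smallest p of the difference between days are given without a call. Igf1, a growth factor, differed by 0.27 at 21 and −1.07 at 60 days (adjusted p of the difference between days 0.44), and Palld, an actin-binding protein, by 0.96 and −0.24 (adjusted p 0.627). Ppm1g, a phosphatase, differed by −0.40 and 0.32 (adjusted p 0.338). The median of the cholesterol list was −0.33 at 21 and −0.028 at 60 days, and that of the ribosomal protein list −0.060 and −0.21; the change between days was not tested for lists.

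**Figure D5:**
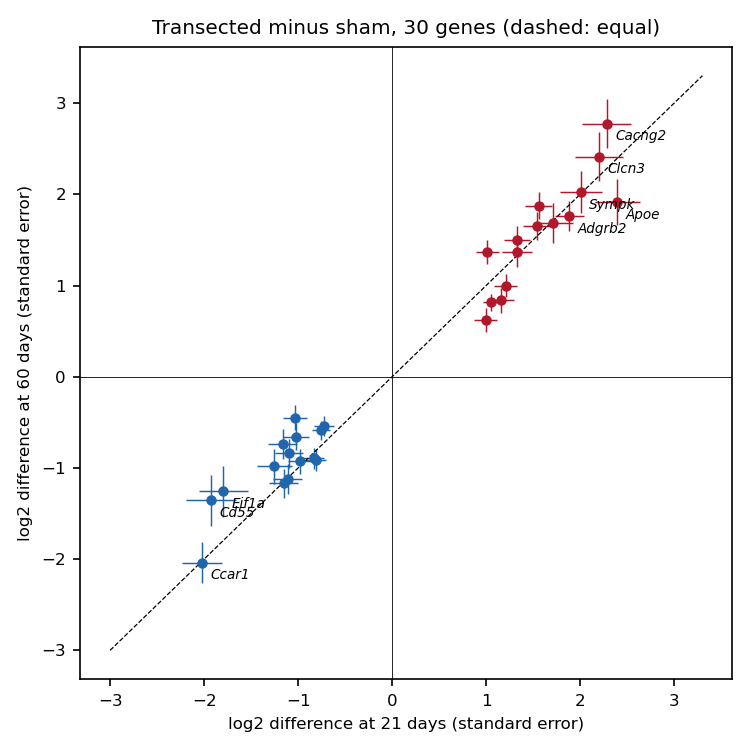
Log2 difference between transected and sham arrays at 21 days (horizontal) and 60 days (vertical) for the 30 genes with the smallest adjusted p at 21 days, with standard errors; the dashed line marks equal values. All 15 risers and all 15 fallers keep their direction at 60 days.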

How the data were processed

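The deposited table holds log2 probe set signals of Affymetrix rat expression arrays, made by RMA per the submitters' processing notes; RMA removes background, brings the arrays to a common distribution and combines the probes of each set, and its version is not given in the sources used here. Arrays have no count depth, so their number limits precision. All 27 arrays in 4 groups (operation by day) were fitted without covariates in limma 3.58.1 (R 4.3.3) with lmFit and eBayes, without a filter on signal and without the 6 beta-actin and GAPDH control probe sets. Two-sided p-values received a Benjamini-Hochberg adjustment across the 12913 probe sets, with a threshold of 0.05.

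Of the probe sets 11880 had 1 gene symbol in the platform annotation, 320 several and 713 none listed; 11849 identifiers were found in the RefSeq table. The probe set with the highest mean signal stood for a gene, and the text says where another probe set of a main example differs. Controls and marker means were compared by exact permutation tests over the 14 arrays of day 21, adjusted over 17 tests (Python 3.11.15, numpy 2.4.6, pandas 2.3.3, matplotlib 3.10.9). The fit was tested on simulated data. Same-numbered samples did not deviate together (correlations from −0.204 to 0.175), so the numbers were not taken as pairs.

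The comparison, its 51 gene lists and the rules for named genes were chosen with earlier results of these data known. Named genes were the 15 per direction with the smallest adjusted p, up to 4 per list and direction, the 5 per direction with the smallest p of the difference between days, 10 genes with probe sets called in opposite directions and a fixed set (Chat, Slc18a3, Slc12a5, Htr2a, Htr2b, Htr2c, Cacna1c, Cacna1d, Gria4, Cacng2, Grin3b, Apoe, Gfap, Mbp, Aif1, Atf3, Arg1, Scn9a and Srebf2), of which Chat and Slc12a5 had no single-gene probe set. List examples were mostly those whose call held without any 1 array. Lists were described by counts, with no set test. No genome was used; promoter sequences and gene spans came from RefSeq tables of assembly GRCr8.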

Additional observations from a re-analysis of the deposited data

Results flagged for a closer look

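Among the 45 genes and 17 control and marker measures examined, in 124 groups of values, 7 values stood apart from the rest of their group by Dixon's criterion; chance alone sets apart about 1 in 20 groups. Arg1 read 10.92 in transected replicate 4, against 7.79 in the next array of the group, and Clcn3 read 7.94 in the same array, against 8.97. In sham replicate 1, Clcn3 read 5.85, against 6.82 in the next array, and Parp8 read 6.85, against 6.61. Apoe read 6.39 in sham replicate 6, against 5.92. Zcchc17 read 6.42 in transected replicate 2, against 6.86, and 7.61 in sham replicate 5, against 7.78. The calls of these genes held without any 1 array.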

How the results depend on the processing

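The counts of higher and lower probe sets (1465 and 1452) stayed within 1.5 times under array weights (1725 and 1696), quantile normalization (1578 and 1204), median centring, a trended robust prior, the 14 arrays of day 21 alone (1169 and 1267) and with transected replicates 5 to 8 left out (1906 and 1997). With transected replicates 1 to 4 left out they were 679 and 656. With only probe sets above the median signal 699 rose and 1112 fell, so that 38.6% of the calls were higher instead of 50.2%. Fits without 1 array each gave 1044 to 1619 higher and 996 to 1559 lower, with the lowest counts without sham replicate 1. With the replicate block the counts were 1643 and 1583; same-numbered samples share only a number. The difference between days, 0 calls, gave 3 with array weights and 161 with transected replicates 1 to 4 left out. No probe set called in any of these fits was called in the opposite direction with all arrays. For the named genes 6136 of 6785 values across these settings kept their side of the threshold, 634 lost the call and 15 gained one. With another probe set of the gene 16 of 106 values reversed: Ccar1 (0.32), Shank2 (−0.77), Kcnab1 (0.27), Kcnc2 (0.46), Tubb5 (−0.37), Nrg1 (−0.61), Usp7 (0.49), Crem (−0.86), Sptssb (−0.74), Pbrm1 (0.40 and 0.33), Gch1 (0.41), Papolg (0.40), Serf2 (−0.85), Kdm2a (0.42) and Nlk (0.36); the cause was not tested. The number of arrays and low signals limit what can be called.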
